A study of Mus musculus with 18 samples.

Results

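Chemokines and chemokine receptors were followed as a gene family in embryonic mouse palate. The members were the 53 genes, of 18193 measured, whose array annotation gives a single systematic symbol of the family. Taken were CC, CXC, CX3C and XC chemokines, CC, CXC and CX3C receptors, and atypical receptors (Ackr). The members comprised 33 ligands (18 CC, 13 CXC, and Cx3cl1 and Xcl1) and 20 receptors (10 CC, 6 CXC or CX3C, and 4 atypical). The XC receptor Xcr1 was measured but was not a member. Each gene was read from its brightest probe set over all 18 arrays, and 4 probe sets that carry several symbols were left out. All embryos were C57BL/6J at embryonic day 15.5, and sex was not determined. The 3 groups of 6 arrays were anterior palate of Tgfbr2 fl/fl controls, posterior palate of Tgfbr2 fl/fl controls, and posterior palate of mutants with the genotype K14-Cre;Tgfbr2 fl/fl. The floxed receptor allele was therefore shared by every group, although a source label calls the control model wildtype. K14-Cre is a recombinase under a keratin promoter, so loss of the TGF-beta receptor is directed at epithelial cells, while whole palatal tissue was measured. Mutants and controls came from different litters, and whether a sample holds 1 embryo or several is not labelled. The p-values therefore measure only the spread between these samples. The stated purpose was to learn how a faulty TGF-beta signal in epithelium affects palatal epithelium and muscle fibres.

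Chemokines are small secreted proteins that direct the movement of cells along gradients. They bind G protein-coupled receptors on leukocytes and on other migrating cells, and glycosaminoglycans on cell surfaces and in the matrix hold them in place. Atypical receptors bind the same ligands without the usual G protein signal, and some of them, such as the scavengers Ackr3 and Ackr4, take ligands out of the tissue. In embryos, Cxcl12 and Cxcr4 guide progenitor cells, and monocyte attractants and Cx3cr1 are associated with the macrophages that settle in tissues.

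Values were log2 expression after RMA. Array medians lay between 5.74 and 5.90, and 24 of the 53 members had a mean over 18 arrays above 5.77, the middle of those medians. Without detection calls, a value at or below that level may hold background. Medians were 5.74 to 5.80 in controls, 5.77 to 5.78 in mutant arrays 4 to 6 and 5.87 to 5.90 in mutant arrays 1 to 3, which stood above all others. Labelling spike-in controls averaged 6.79 to 8.28 in mutant and 8.75 to 10.48 in control arrays, without overlap. Hybridisation spike-ins parted arrays 1 to 3 from arrays 4 to 6 within each genotype (10.53 to 10.63 and 10.88 to 11.13 in controls, 11.38 to 11.91 and 10.67 to 10.78 in mutants). The labels name no such sets, and none held both genotypes, so genotype cannot be told apart from litter or array processing. The probe set that stands for Tgfbr2 itself differed by 0.55 (mutant minus control posterior, adjusted p = 0.00879, limma). Whether its probes lie inside the floxed exons was not looked at, so this value is no check of the genotype.

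The first question was which chemokines and receptors differ with genotype in posterior palate. The CC ligands Ccl12 and Ccl2, which draw monocytes through Ccr2, were 1.75-fold and 1.34-fold lower in mutants. The membrane-bound chemokine Cx3cl1 (fractalkine) was 1.43-fold lower, while its receptor Cx3cr1, found on monocytes and macrophages, was 1.29-fold higher. Ccl24, a ligand of the eosinophil receptor Ccr3, was 1.31-fold higher, and the Cxcl12 scavenger Ackr3 was 1.45-fold lower. These 6 of 53 members (2 higher, 4 lower) had an adjusted p under 0.05 in a limma fit over all genes. That is 11.3% of the members, where 13.5% of all genes were called (7.73% higher and 5.73% lower), so the family as a whole stood near the background. The median difference was 0.04 over the members and 0.04 over all genes.

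Ccl12 read 7.24 to 7.72 in control posterior arrays (median 7.36) and 6.18 to 7.06 in mutant arrays (median 6.57). Every mutant array lay below every control posterior array. The log2 difference was -0.81 (SE 0.14, adjusted p = 0.00128, limma). Anterior controls, at 6.76 to 7.26 (median 6.97), lay between the posterior groups and overlapped both. The difference was -0.53 within arrays 1 to 3 (adjusted p = 0.064) and -1.08 within arrays 4 to 6 (adjusted p = 0.00234, limma), and the comparison within arrays 1 to 3 was the only alternative in which the call at 0.05 was lost.

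Ccl2, which lies in the same cluster of CC ligand genes as Ccl12, read 6.17 to 6.48 in control posterior arrays (median 6.27) and 5.67 to 6.10 in mutant arrays (median 5.91). The groups again did not overlap. Its difference was -0.42 (SE 0.10, adjusted p = 0.00942, limma), with -0.38 within arrays 1 to 3 (adjusted p = 0.142) and -0.47 within arrays 4 to 6 (adjusted p = 0.027). With the 4 array sets as a random block the call of Ccl2 was lost (adjusted p = 0.0883), and that of Ccl12 was not (adjusted p = 0.0155, limma). Ccl12 and Ccl2 were the only members whose posterior groups did not overlap, both lower in mutants. Of all genes, 6.55% did not overlap, 3.52% higher and 3.03% lower. Their shared receptor Ccr2 read 6.10 to 6.62 in control posterior and 5.73 to 6.96 in mutant arrays, and its difference of -0.18 was not called (adjusted p = 0.612, limma).

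Fractalkine and its receptor were called in opposite directions. Cx3cl1 read 6.90 to 7.33 in control posterior arrays (median 7.07) and 6.00 to 7.42 in mutant arrays (median 6.52), where 5 of 6 arrays lay below every control. The difference was -0.52 (SE 0.16, adjusted p = 0.0388, limma). This value depends on the probe set: the second brightest probe set of Cx3cl1 differed by 0.40 in the other direction (adjusted p = 0.00629), the remaining ones by -0.05 and -0.03, and the mean of all 4, the brightest included, by -0.05 (adjusted p = 0.673). The call was also lost in 11 of 18 fits that each left out 1 array (adjusted p = 0.0515 to 0.0792), those without any 1 of the control posterior arrays and without mutant arrays 1, 3, 4, 5 or 6. It was lost too with the compared groups alone (adjusted p = 0.101) and with the 4 sets as a block (0.233). Within arrays 1 to 3 the difference was -0.60 (adjusted p = 0.252) and within arrays 4 to 6 it was -0.44 (adjusted p = 0.0118, limma). Which of these probe sets reads the transcript made in palate was not tested.

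Cx3cr1 read 7.56 to 8.01 in control posterior arrays (median 7.64) and 7.76 to 8.41 in mutant arrays (median 7.99). The groups overlapped, and all 6 mutant arrays exceeded the control mean. The difference was 0.37 (SE 0.12, adjusted p = 0.0435), and a second probe set moved alike, by 0.32 (adjusted p = 0.0203, limma). It was lost after median centring (0.32, adjusted p = 0.122) and in 12 of 18 fits without 1 array (adjusted p = 0.0513 to 0.0951). Those were the fits without anterior control array 1, 3, 4 or 6, control posterior array 1, 2, 4, 5 or 6, or mutant array 1, 5 or 6. The compared groups alone (adjusted p = 0.091) and the block of 4 sets (0.227) ended it as well. The difference was 0.29 within arrays 1 to 3 (adjusted p = 0.343) and 0.45 within arrays 4 to 6 (adjusted p = 0.0589, limma).

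**Figure D1:**
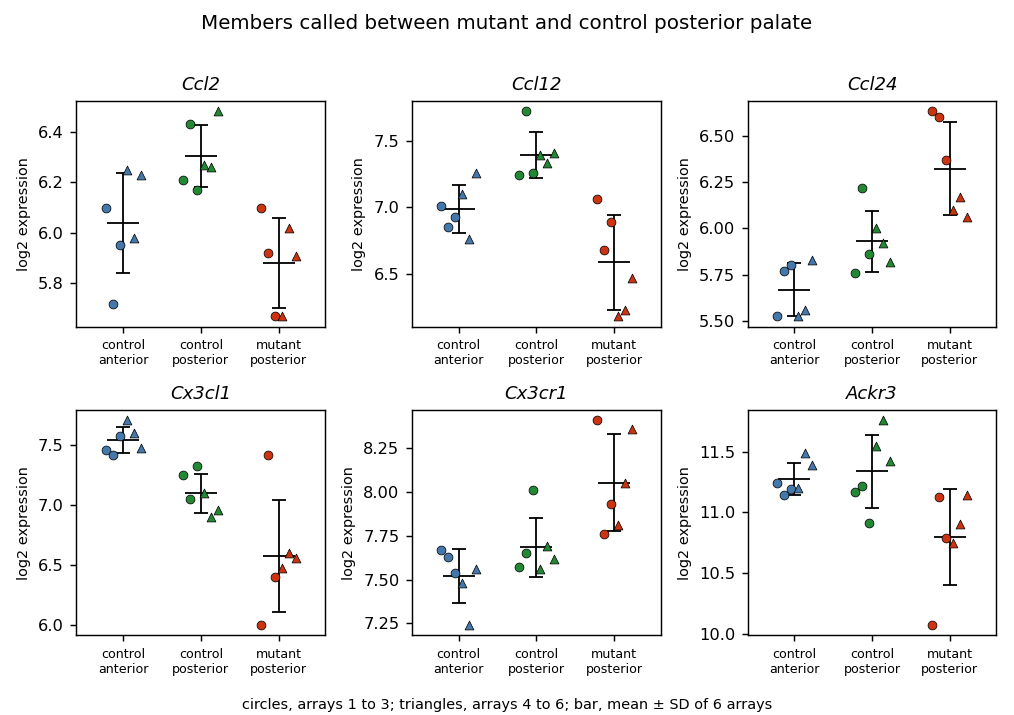
Log2 expression (vertical axis) of the 6 members called between mutant and control posterior palate, by group, with 1 point per array and bars for mean ± SD (n = 6). Circles are arrays 1 to 3 and triangles arrays 4 to 6. For Ccl2 and Ccl12 every mutant point lies below every control posterior point, and for Cx3cl1 and Ackr3 the lowest point is a mutant array from the first set.

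Ccl24 read 5.76 to 6.22 in control posterior arrays (median 5.89) and 6.06 to 6.63 in mutant arrays (median 6.27), close to the array medians. The difference was 0.39 (SE 0.11, adjusted p = 0.0235, limma), and the mutant arrays 1 to 3 held the 3 highest values and also had the highest array medians. Within arrays 1 to 3 it was 0.59 (adjusted p = 0.0382) and within arrays 4 to 6 it was 0.20 (adjusted p = 0.19, limma). The call was lost without control posterior array 1 or 6 (adjusted p = 0.0522 to 0.0545), with the compared groups alone (0.0583), with the 4 sets as a block (0.12) and with array weights (0.24, adjusted p = 0.104). Ccr3, the receptor through which Ccl24 acts on eosinophils, read 2.99 to 3.21 in control posterior and 3.05 to 3.77 in mutant arrays, below the array medians throughout, and differed by 0.31 (adjusted p = 0.0729, limma).

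Ackr3 binds Cxcl12 and limits its gradient. It read 10.91 to 11.76 in control posterior arrays (median 11.32) and 10.07 to 11.14 in mutant arrays (median 10.84), a difference of -0.54 (SE 0.16, adjusted p = 0.0342, limma). The groups overlapped, and all 6 mutant arrays lay below the control mean. The lowest value, 10.07, was that of mutant array 1, and without it the difference was -0.40 (adjusted p = 0.0548). The call was likewise lost without control posterior array 4, 5 or 6 or mutant array 3 or 4 (adjusted p up to 0.0892), with the compared groups alone (0.0906) and with the 4 sets as a block (0.166). Within arrays 1 to 3 Ackr3 differed by -0.44 (adjusted p = 0.273) and within arrays 4 to 6 by -0.64 (adjusted p = 0.0131, limma).

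The ligand and the signalling receptor of that axis were not called. Cxcl12 read 10.29 to 10.79 in control posterior arrays (median 10.57), 10.49 to 11.37 in mutant arrays (median 10.77) and 10.10 to 11.07 in anterior controls (median 10.79). It differed by 0.29 for genotype (adjusted p = 0.285) and by -0.15 for region (posterior minus anterior, adjusted p = 0.679, limma). Cxcr4 read 7.53 to 7.78 in control posterior arrays and 6.80 to 8.58 in mutant arrays, a wider spread around nearly the same mean (difference -0.01, adjusted p = 0.983, limma). The groups overlapped for both genes.

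By class, the genotype calls were 3 of 18 CC ligands (Ccl12, Ccl2 and Ccl24), none of 13 CXC ligands, Cx3cl1 beside the uncalled Xcl1, none of 10 CC receptors, 1 of 6 CXC and CX3C receptors (Cx3cr1) and 1 of 4 atypical receptors (Ackr3). The uncalled CXC ligands ranged from -0.67 for the neutrophil attractant Cxcl3 (adjusted p = 0.301) to 0.90 for the B cell attractant Cxcl13 (adjusted p = 0.138, limma). Cxcl9, an interferon-induced ligand of Cxcr3, differed by 0.58 and lay just outside the threshold (adjusted p = 0.0539). It was called when mutant array 2, 3, 5 or 6 was left out. Its second probe set differed by -0.07 (adjusted p = 0.647), and the mean of both by 0.26 (adjusted p = 0.132, limma). The readings of 3.61 to 3.99 in control posterior and 3.82 to 5.41 in mutant arrays by the brightest probe set lay below the array medians.

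**Figure D2:**
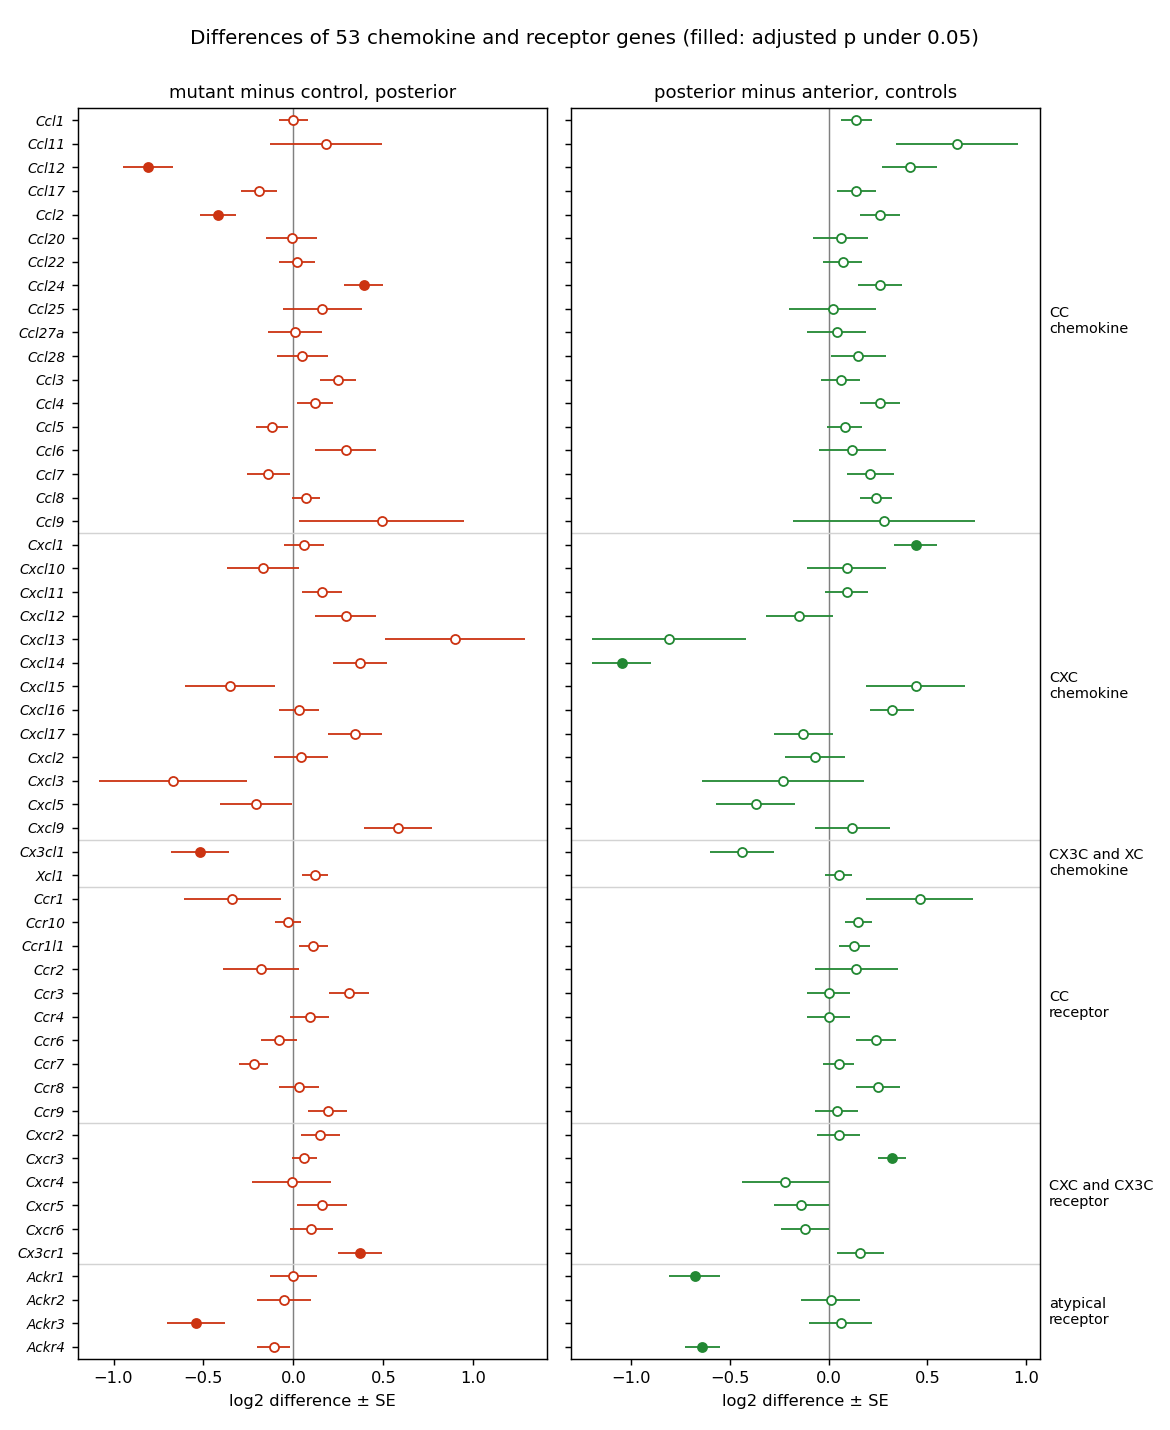
Log2 difference ± SE (horizontal axis) of each of the 53 members, for mutant minus control posterior palate at the left and posterior minus anterior control palate at the right, ordered by class. Filled points had an adjusted p under 0.05 (6 at the left, 5 at the right), and at the right every CC chemokine lies above 0.

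Mutant array 1 stood apart for several members. Ccl9, a CC ligand made by macrophages and osteoclasts, read 10.88 there and 6.92 to 8.34 in the other mutant arrays. Ccr1, a receptor of Ccl9, read 8.79 there and 6.60 to 7.26 in the others, and Cxcl13 read 8.50 there and 5.33 to 6.32 in the others. Of the 53 members, this array was the highest of the 6 mutants for 21 and the lowest for 13. Without it, Ccl9 went from 0.49 (adjusted p = 0.524) to -0.05 (adjusted p = 0.927, limma). Cxcl13 went from 0.90 to 0.46, and Ccr1 went from -0.34 (adjusted p = 0.451) to -0.64 and was called (adjusted p = 0.0179, limma). Within arrays 4 to 6 Ccr1 differed by -1.02 (adjusted p = 0.00426, limma) and within arrays 1 to 3 by 0.35. The positive sign within arrays 1 to 3 rests on mutant array 1. Mutant arrays 2 and 3 read 7.26 and 7.25 for Ccr1, below control posterior arrays 1 to 3, at 7.29 to 7.62.

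The same array held high values of osteoclast genes, a list of 11 that was chosen after values had been seen. Of these 11, 10 were highest of all 18 arrays in mutant array 1, and the mean of the list was 8.26 there and 5.77 to 6.27 in the other 17. Acp5, the acid phosphatase of osteoclasts, read 11.15 there and 6.44 to 8.08 in the other arrays. The bone-degrading protease gene Ctsk read 12.67 there and 8.61 to 10.93 elsewhere, and Mmp9 read 11.29 and 6.64 to 8.44. The mean of 15 basal and simple epithelium genes was lowest in the same array, at 8.96, with 10.88 to 11.79 in the other mutant arrays. The part of tissue makeup in the chemokine values of that array was not tested.

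**Figure D3:**
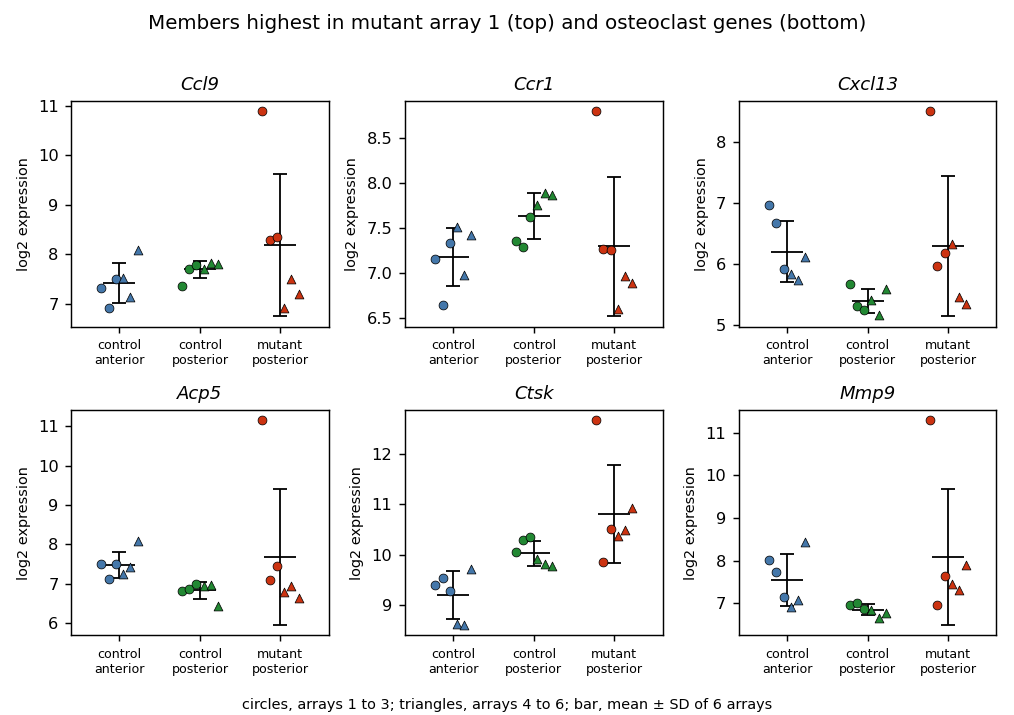
Log2 expression (vertical axis) of the members Ccl9, Ccr1 and Cxcl13 (top) and of the osteoclast genes Acp5, Ctsk and Mmp9 (bottom), by group, with 1 point per array and bars for mean ± SD (n = 6). In each panel the single highest point of all 18 arrays is mutant array 1, and the osteoclast genes were chosen after values had been seen.

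Genes that act downstream of, or upon, chemokines were counted in lists. Over all genes, 7.73% were called higher in mutants and 5.73% lower, with a median difference of 0.04. Median centring moved the share of those calls that were higher from 57.5% to 40.5%. Whether the calls in these lists hold after such centring was not tested. Of 45 measured genes of chemokine signal transduction, 9 were higher in mutants and none lower, with a median of 0.11. They included Ncf1, a subunit of the phagocyte oxidase (0.71, adjusted p = 0.0345), Pik3cg, the PI3-kinase subunit coupled to G proteins (0.65, adjusted p = 0.000809), and the adaptor Crkl (0.48, adjusted p = 0.00364, limma). Of 22 genes of chemokine processing and presentation, 4 were higher and 1 lower. Dpp4, which trims the N terminus of several chemokines, was higher by 1.07 (adjusted p = 0.00289), and Mmp12, a macrophage metalloproteinase that cleaves chemokines, fell by 1.65 on the log2 scale (adjusted p = 0.0121, limma). Both glypicans called, Gpc3 (0.49) and Gpc1 (0.48), are heparan sulphate carriers and were higher. Among 29 inflammatory inducers and adhesion genes, 1 was lower, the transcription factor Cebpb (-0.40, adjusted p = 0.0384), and none was higher. Of 22 chemokine-like ligands, receptors without a systematic symbol and coreceptors, a list that also holds Ackr1, Ackr2 and the XC receptor Xcr1, none was called.

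Markers of cell types that make or receive chemokines were counted in the same fit, where 13.5% of all genes were called for genotype. In bulk tissue fewer cells of a type and less RNA per cell cannot be told apart. Of 18 macrophage genes 4 were higher and 2 lower in mutants, and 14 had a positive difference, where 58.3% of all genes had one. The receptors Csf1r (0.53, adjusted p = 0.0489) and Cd163 (0.59, adjusted p = 0.0098, limma) were among the higher ones. Cd163 read below the array medians, at 2.95 to 3.72 in control posterior and 3.54 to 4.21 in mutant arrays. The complement gene C1qb (-0.68, adjusted p = 0.00134) and the lipid receptor Trem2 (-0.42, adjusted p = 0.00434, limma) were lower. The mean of the list was 7.80 to 8.16 in control posterior and 7.79 to 8.38 in mutant arrays. Mast cell genes averaged 6.25 to 6.68 in control posterior and 6.56 to 8.19 in mutant arrays, with 1 of 10 called, the tryptase Tpsab1 (2.68, adjusted p = 0.000983). None of 13 lymphocyte genes was called, and 1 of 8 neutrophil genes was, lactotransferrin Ltf, which secretory epithelium also makes (1.60, adjusted p = 0.0268, limma). Stratified epithelium genes, of which 10 of 16 were higher and none lower, averaged 6.80 to 7.48 in control posterior and 7.63 to 9.42 in mutant arrays. None of 12 endothelial genes, 15 basal and simple epithelial genes or 8 platelet genes was called. Of the others, 2 of 7 red cell genes were lower, both globins. They were Hbb-y (-2.93, adjusted p = 1.88e-06) and Hba-x (-1.40, adjusted p = 0.00848, limma), and 3 of the 7 red cell genes had a positive difference. Higher were 1 of 16 skeletal muscle, 2 of 12 mesenchyme and 1 of 8 glial and neuronal genes. By sign alone, 11 of 12 endothelial, 15 of 16 skeletal muscle, 14 of 16 stratified epithelium and 9 of 10 mast cell genes were positive. Of the basal and simple epithelial genes 14 of 15 were negative. The part of these cell types in the chemokine differences was not tested.

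The second question was which members distinguish the posterior from the anterior palate of controls. Cxcl14, a chemokine known from epithelium, was 2.07-fold lower posteriorly. The atypical receptors Ackr1, carried by venules and red cells, and Ackr4, a scavenger of Ccl19, Ccl21 and Ccl25, were 1.61-fold and 1.56-fold lower. Cxcl1, a neutrophil attractant, was 1.36-fold higher, and Cxcr3, the receptor of Cxcl9, Cxcl10 and Cxcl11, was 1.24-fold higher. These were 5 of 53 members (9.43%), 2 higher and 3 lower, where 3.82% of all genes were called (1.7% higher and 2.12% lower). Equal array numbers deviated together in anterior and posterior controls (correlation over 0.1 in each of 6 pairs), and with the number as a block 12 members (22.6%) were called, 7 higher and 5 lower, where 17.3% of all genes were. Equal numbers also lie in the same array set, so a shared set and a shared embryo cannot be told apart in these correlations. With the 4 array sets as a random block 6 members were called for region, the 5 named and Ccl12 (adjusted p = 0.0446, limma), where 1322 of 18193 genes were. This comparison uses the same control posterior arrays as the genotype comparison.

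Cxcl14 read 6.45 to 7.18 in anterior controls (median 6.73) and 5.36 to 6.02 in posterior controls (median 5.77), without overlap. The difference was -1.05 (SE 0.15, adjusted p = 0.000335, limma), and the second probe set differed by -1.66 (adjusted p = 0.000881). It was -1.04 within arrays 1 to 3 (adjusted p = 0.0264) and -1.05 within arrays 4 to 6 (adjusted p = 0.0297), and it was called in all 29 alternatives. The posterior values lay about the array medians. In mutant posterior palate Cxcl14 read 5.78 to 6.46 (median 6.08). That was 0.37 above the posterior controls and not called (adjusted p = 0.107), with 0.02 within arrays 1 to 3 (adjusted p = 0.961) and 0.72 within arrays 4 to 6 (adjusted p = 0.0185, limma).

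Ackr1 read 7.38 to 8.13 in anterior controls (median 7.71) and 6.99 to 7.21 in posterior controls (median 7.09), also without overlap. The difference was -0.68 (SE 0.13, adjusted p = 0.00472, limma). Within arrays 1 to 3 and 4 to 6 it was -0.83 (adjusted p = 0.153) and -0.54 (adjusted p = 0.0656). Ackr4 read 5.75 to 5.99 in anterior controls (median 5.90) and 4.99 to 5.44 in posterior controls (median 5.33), and its groups did not overlap, with the posterior values below the array medians. Its difference was -0.64 (SE 0.09, adjusted p = 0.00052), and its other probe sets gave -0.54 (adjusted p = 0.0296) and -0.25 (adjusted p = 0.468, limma). Within arrays 1 to 3 Ackr4 differed by -0.75 (adjusted p = 0.131) and within arrays 4 to 6 by -0.53 (adjusted p = 0.0218). The mutant arrays, at 4.82 to 5.32 for Ackr4 and 6.84 to 7.57 for Ackr1, overlapped the posterior controls for both genes. Ackr2 read 5.14 to 5.65 in posterior and 5.20 to 5.79 in anterior controls, and neither it (0.01, adjusted p = 0.981) nor Ackr3 (0.06, adjusted p = 0.874) was called for region.

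Cxcl1 read 6.59 to 7.14 in anterior controls (median 6.82) and 7.14 to 7.42 in posterior controls (median 7.26), so the groups met at 7.14. The difference was 0.44 (SE 0.11, adjusted p = 0.0249, limma). The other probe sets of Cxcl1 did not show it (0.11, adjusted p = 0.677, and -0.10, adjusted p = 0.771), and the mean of all 3, the brightest included, differed by 0.15 (adjusted p = 0.384). The call was also lost without anterior array 2, 3 or 5 or posterior array 3 or 6 (adjusted p = 0.0527 to 0.0722). Cxcr3 read 4.69 to 4.84 in anterior and 4.86 to 5.20 in posterior controls, without overlap but below the array medians, with a difference of 0.32 (SE 0.07, adjusted p = 0.0221, limma). Without anterior array 4 or posterior array 4 or 6 that call was lost (adjusted p = 0.0504 to 0.0655). Neither was called within a set of arrays: Cxcl1 differed by 0.55 (adjusted p = 0.189) and 0.33 (adjusted p = 0.197), and Cxcr3 by 0.30 (adjusted p = 0.398) and 0.33 (adjusted p = 0.128, limma), in arrays 1 to 3 and 4 to 6.

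**Figure D4:**
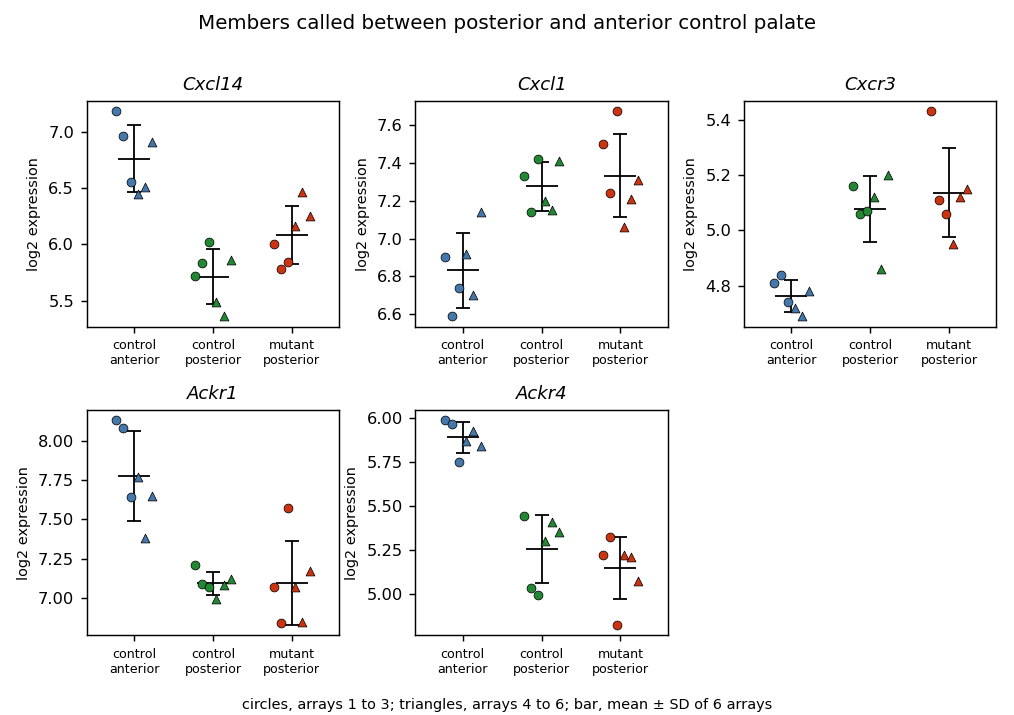
Log2 expression (vertical axis) of the 5 members called between posterior and anterior control palate, by group, with 1 point per array and bars for mean ± SD (n = 6). Cxcl14, Ackr1 and Ackr4 lie lower in each posterior control array than in each anterior one. Cxcr3 lies higher in each, and for Cxcl1 the control groups meet at 7.14.

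All 18 CC ligands had a positive difference, meaning a higher mean in posterior controls, although none was called in that fit. Their differences ran from 0.02 for Ccl25 to 0.65 for the eosinophil attractant Ccl11 (adjusted p = 0.25; 0.34 without control posterior array 3, which read 7.15), with a median of 0.15, where all genes had a median of -0.02 and 45.9% were positive. All 18 were also positive after median centring (median 0.22), and 17 were with array weights. Within arrays 1 to 3, 17 were positive, and within arrays 4 to 6, 12 were. Ccl1, Ccl3, Ccl5, Ccl7, Ccl8, Ccl11, Ccl17, Ccl22 and Ccl28 averaged 4.31 to 5.57 over the 18 arrays, below the array medians. Such values may hold background. Groups of 6 and of 5 CC ligands are neighbouring genes, so the 18 may not be independent. With the number of the array as a block, Ccl12 (0.41, adjusted p = 0.0238) and Ccl8 (0.24, adjusted p = 0.0239) were called, both attractants of monocytes. Ccr1 (0.46, adjusted p = 0.0171), the Ccl20 receptor Ccr6 (0.24, adjusted p = 0.0433) and Cxcl15 (0.44, adjusted p = 0.00335) were also higher posteriorly in that fit, and Cx3cl1 (-0.44, adjusted p = 0.00804) and Cxcl13 (-0.81, adjusted p = 0.00664, limma) were lower. Of these 7, Ccl12 alone was also called with the 4 array sets as a block. Ccl8 and Ccr6 read below the array medians, and Cxcl15 averaged 5.28 over the 18 arrays, also below them. The other probe sets of Cx3cl1 differed by -0.09, -0.07 and 0.12 for region, that of Cxcl15 by -0.04 and that of Ccr1 by -0.06, none of them called without the block. Cx3cl1 read 7.42 to 7.71 in anterior and 6.90 to 7.33 in posterior controls, and Cxcl13 read 5.73 to 6.95 and 5.15 to 5.66. Neither gene's control groups overlapped, and in all 1 member was higher and 5 were lower without overlap, where 6.32% of all genes did not overlap (2.65% higher and 3.67% lower).

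The same marker lists were counted for region, where 3.82% of all genes were called. Of 18 macrophage genes 3 were higher posteriorly and none lower: C1qb (0.62, adjusted p = 0.00523), C1qa (0.60, adjusted p = 0.0048) and Trem2 (0.38, adjusted p = 0.0184, limma). The mean of the list was 7.46 to 7.95 in anterior and 7.80 to 8.16 in posterior controls, which overlap. Skeletal muscle genes, all 16 of them higher posteriorly, averaged 5.71 to 8.07 in anterior and 9.72 to 10.97 in posterior controls. Endothelial genes averaged 7.36 to 8.31 and 7.63 to 8.03, with none of 12 called, and of 8 platelet genes 1 was lower, Vwf, which endothelium also makes (-1.03, adjusted p = 0.0115). Stratified epithelium genes averaged 7.27 to 8.55 in anterior and 6.80 to 7.48 in posterior controls, with 1 of 16 lower, and basal and simple epithelium genes averaged 11.27 to 11.95 and 11.12 to 11.53, with none called. Of 12 mesenchyme genes 1 was higher. No lymphocyte, neutrophil, mast cell, red cell or glial and neuronal gene was called for region. By sign alone, 16 of 18 macrophage genes were positive, where 45.9% of all genes were. Negative were 14 of 16 stratified epithelium, 12 of 15 basal and simple epithelium, 10 of 12 endothelial and 7 of 8 neutrophil genes. The part of these cell types in the differences of Cxcl14, Ackr1 and the CC ligands was not tested.

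Of the signal transduction list, 1 gene was higher posteriorly and 2 were lower: Rgs16, a regulator that ends G protein signals (0.64, adjusted p = 0.0386), the kinase Ptk2b (-0.41, adjusted p = 0.0371) and the polarity gene Pard3 (-0.33, adjusted p = 0.00708, limma). No processing or inflammatory gene was called, and among the chemokine-like genes and coreceptors the 1 called was the member Ackr1.

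Promoter windows of 250 bases before the start were matched by Entrez gene identifier in a RefSeq table (GRCm38.p6) for 40 of the 53 members, as 44 windows. Letters of the type bound by NF-kappaB (GGG and TTCC with any 3 bases between them, on either strand) occurred in 9 of the 44 windows (20.5%), those of Ccl1, Ccl20, Ccl9, Ccr3, Ccr6, Cxcl1, Cxcl10, Cxcl2 and Cxcl3, and in 4.65% of 32851 windows of all genes. In 4 windows such matches overlapped one another. TATAAA occurred in 29.5% of member windows and 12.4% of all. TGANTCA, of the AP-1 type, occurred in 11.4% and 6.75%, and CAGAC, of the SMAD type, in 45.5% and 42.2%. Matches of different motifs overlapped in 2 member windows. These shares describe letters, and neighbouring members share sequence, so the windows are not independent. Cxcl1, Cxcl2 and Cxcl3, neutrophil attractants from 1 gene cluster, are printed because they share a motif and not a call. Cxcl14, the member with the largest called difference, is printed as a window without it. The Cxcl14 window precedes a start inside the annotated gene (chr13:56288643-56296811), so bases before the outer end of that gene were not searched. The windows of the other 3 end where their genes begin. Capitals mark matches to the kappaB and TATA types:
Cxcl1 (chr5:90890995-90891244, plus strand): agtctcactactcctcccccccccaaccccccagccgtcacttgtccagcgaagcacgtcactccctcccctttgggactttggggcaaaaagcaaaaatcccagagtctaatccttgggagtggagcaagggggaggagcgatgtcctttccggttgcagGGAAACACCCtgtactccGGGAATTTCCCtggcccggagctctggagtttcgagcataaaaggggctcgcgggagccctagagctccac
Cxcl2 (chr5:90903649-90903898, plus strand): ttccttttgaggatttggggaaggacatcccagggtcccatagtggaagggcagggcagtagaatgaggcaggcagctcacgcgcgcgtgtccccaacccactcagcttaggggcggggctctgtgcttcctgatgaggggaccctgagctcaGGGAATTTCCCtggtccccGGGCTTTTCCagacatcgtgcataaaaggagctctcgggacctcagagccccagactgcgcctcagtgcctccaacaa
Cxcl3 (chr5:90785851-90786100, plus strand): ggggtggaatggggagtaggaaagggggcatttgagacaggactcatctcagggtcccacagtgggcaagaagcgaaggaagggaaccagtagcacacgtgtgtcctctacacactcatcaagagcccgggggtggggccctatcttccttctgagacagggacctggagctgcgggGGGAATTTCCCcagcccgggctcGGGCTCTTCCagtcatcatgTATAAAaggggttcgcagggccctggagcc
Cxcl14 (chr13:56296552-56296801, minus strand): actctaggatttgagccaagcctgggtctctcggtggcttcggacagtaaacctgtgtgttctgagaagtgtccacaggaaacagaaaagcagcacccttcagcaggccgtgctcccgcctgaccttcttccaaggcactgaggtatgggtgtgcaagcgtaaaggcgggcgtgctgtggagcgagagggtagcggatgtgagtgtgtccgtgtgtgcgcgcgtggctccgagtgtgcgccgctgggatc

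The 11-base run GGGAATTTCCC was identical in the first 3 windows, beginning 71 bases before the start of Cxcl1, 97 before that of Cxcl2 and 73 before that of Cxcl3. Their expression differences were not alike. For region, Cxcl1 was called at 0.44 by its brightest probe set, while Cxcl2 differed by -0.07 (adjusted p = 0.841) and Cxcl3 by -0.23 (adjusted p = 0.81, limma). For genotype none of them was called, with 0.06 for Cxcl1 (adjusted p = 0.759), 0.04 for Cxcl2 (adjusted p = 0.904) and -0.67 for Cxcl3. Cxcl2 read 2.87 to 3.99 over the posterior arrays, below the array medians. Cxcl3 varied widely within groups, from 4.16 to 5.99 in control posterior and from 3.18 to 5.46 in mutant arrays.

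Many chemokine genes lie beside each other. Of the 53 members, 30 fell into 7 groups in which neighbouring members lay at most 200 kb apart. In the group of Ccl2, Ccl7, Ccl11, Ccl12, Ccl8 and Ccl1, the genotype difference was called for Ccl2 and Ccl12, while Ccl11, between Ccl7 and Ccl12, differed by 0.18 (adjusted p = 0.75) and Ccl7 by -0.14 (adjusted p = 0.479, limma). Ccl11 also had the widest spread of the group in control posterior arrays, at 4.87 to 7.15. In the group of Ccl5, Ccl9, Ccl6, Ccl3 and Ccl4 and in that of the Cxcr3 ligands Cxcl9, Cxcl10 and Cxcl11, no gene was called in either comparison. Cx3cl1 was called for genotype beside Ccl22 (0.02) and Ccl17 (-0.19), which were not, and Cx3cr1 beside Ccr8 (0.03, adjusted p = 0.893, limma). In the receptor group of Ccr9, Cxcr6, Ccr1, Ccr1l1, Ccr3 and Ccr2, none was called over all arrays in either comparison. No group had all its members called.

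**Figure D5:**
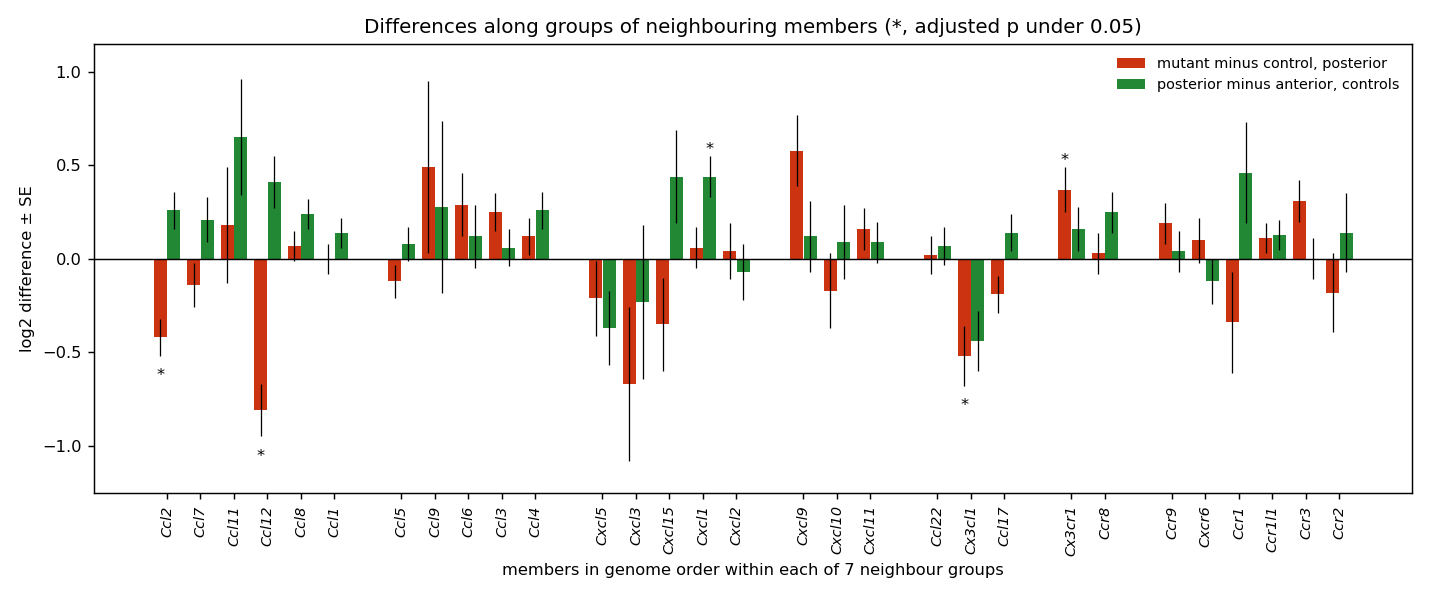
Log2 difference ± SE (vertical axis) of the 30 members that lie in 7 groups of neighbouring genes, in genome order within each group, for mutant minus control posterior palate and for posterior minus anterior control palate. Stars mark an adjusted p under 0.05. In the first group Ccl2 and Ccl12 lie at -0.42 and -0.81 for genotype, with Ccl11 at 0.18 between them.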

How the data were processed

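Palate RNA was hybridised to 18 Affymetrix 1-colour arrays, 6 in each of 3 groups by their titles, although the design text speaks of 5 per group. The deposited log2 values of 45101 probe sets were made by the authors with RMA (per the submitters' processing notes, version not stated). RMA's quantile step gives all arrays nearly 1 distribution and would hide a shift common to most genes. A small offset remained: array means were 6.26 to 6.28 in controls, 6.28 in mutant arrays 4 to 6 and 6.35 to 6.37 in mutant arrays 1 to 3. The number of arrays limits the precision, and no scanner files were used here.

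Of the probe sets, 34945 had 1 symbol in the platform annotation and gave 18193 genes, each by its brightest probe set; 18032 matched a RefSeq table. Tests used limma 3.58.1 (R 4.3.3) by eBayes, 2-sided, with all 3 groups in 1 fit, adjusted by Benjamini-Hochberg over all genes and called at 0.05. The fit was tested on simulated data. Members and lists were chosen with earlier results of these data known. Any member could be named; called members and the Cxcl12 and Cx3cl1 axes are given in full. From each list up to 4 called genes of largest change were named. Further genes were chosen after their values were seen.

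Deviations of arrays with equal numbers correlated at 0.111 to 0.43 between control regions, above 0.1 in 6 of 6 pairs, though only 3 of 6 correlated best with their own number. Between genotypes they correlated at -0.222 to 0.157, above 0.1 in 2 of 6. The main fit did not pair the control regions. The numbers served as a pairing only in the alternative with the number as a block, which comes from the data and not the labels. Promoter letters came from a RefSeq table, and matches were searched on both strands. Alternatives covered probe set choice, a filter on dim genes, scaling, the variance model, array weights, blocks, array sets, a threshold of 0.01 and leaving out each array.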

Additional observations from a re-analysis of the deposited data

Results flagged for a closer look

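Single arrays lay far from the other 5 of their group in 14 of 159 tests of a member within a group, by Dixon's criterion; chance gives about 1 in 20. Mutant array 1 accounted for 6 of them, and the same tests were not made over all genes. It was highest for Ccl9 (10.88, others 6.92 to 8.34), Ccr1 (8.79, others 6.60 to 7.26), Cxcl13 (8.50, others 5.33 to 6.32) and the neutrophil receptor Cxcr2 (4.61, others 3.71 to 4.00). It was lowest for Ackr3 (10.07, others 10.75 to 11.14) and Ccl17 (4.63, others 5.16 to 5.33).

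The control posterior group held 7. In array 2, Ccl12 was high (7.72, others 7.24 to 7.41), as was Cxcl10, an interferon-induced ligand of Cxcr3 (6.59, others 5.14 to 5.31), while Cxcl11, another such ligand, was low (3.67, others 3.85 to 3.94). Cx3cr1 was high in array 3 (8.01, others 7.56 to 7.69). Low values were those of Ccl3 in array 6 (3.89, others 4.26 to 4.36), Ccl8 in array 5 (5.11, others 5.29 to 5.37) and Ccl9 in array 1 (7.36, others 7.70 to 7.81). In anterior controls Xcl1 was low in array 5 (3.66, others 3.74 to 3.78). The values given for Ccl3, Ccl8, Ccl17, Cxcl11, Cxcr2 and Xcl1 lay below the array medians.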

How the results depend on the processing

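Of 6 members called for genotype, 2 stayed called with the compared groups only, 2 with the replicate block, 1 with the random block of 4 array sets, 1 within arrays 1 to 3 and 2 at an adjusted p under 0.01. Leaving out 1 array gave 2 to 8 (3 without control posterior array 1 or 5, 2 without array 6). Counts over all genes went from 2449 to 1572, 890 and 588 with the compared groups, the replicate block and the 4 sets, to 905 at 0.01, and to 1512 to 2735 without 1 array (1592 and 1512 without control posterior array 4 or 5). For region, the 5 members became 3 among bright genes only, a fit that left out Ackr4 and Cxcr3 as dim. They became 12 with array weights, 9 with the compared groups only, 12 with the replicate block, and 1 and 3 within arrays 1 to 3 and 4 to 6. At 0.01 there were 3, and without 1 array 3 to 7 (3 without control posterior array 6). Over all genes the region count went from 695 to 3356 with array weights, 2151 with the compared groups only, 3156 with the replicate block, 1322 with the 4 sets, 148 and 220 within arrays 1 to 3 and 4 to 6, and 251 at 0.01. It was 389 to 1213 without 1 array (442 and 458 without anterior array 1 or 3, 450, 437 and 389 without posterior array 2, 4 or 6, and 1213 without mutant array 1). Causes were not tested. Median centring moved the share of calls that were higher from 57.5% to 40.5% for genotype and from 44.5% to 71.2% for region. Called members lost the call in 58 of 174 alternative values for genotype and 18 of 143 for region, and none changed sign. Members not called gained a call in 16 of 1334 values (7 genes) and 25 of 1365 (10 genes), and changed sign uncalled in 86 and 47. The replicate block could stand for a pairing only for region, and the labels do not state one. No detection calls were used, so dim members carry unknown background.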
